A study of Mus musculus with 20 samples.

Results

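The genes that write and erase methylation on lysine 36 of histone H3 (H3K36) were examined as a set of 10: the writers Setd2, Nsd1, Ash1l, Setd5 and Setmar, and the erasers Kdm2a, Kdm2b, Kdm4a, Kdm4b and Kdm4c. Their accessible elements were taken from 20 ATAC-seq peak lists as every merged peak within 10 kb of a gene's GRCm38 span. ATAC-seq cuts open DNA with a transposase, and a peak marks a stretch that was cut more often than the background. This gave 68 elements of 101352 in the series, 19 at the writers and 49 at the erasers, built from 672 of 787806 peaks. All 20 libraries came from C2C12, a mouse myoblast line that can form muscle cells. Cells were wild type (WT) or carried a knockout of Setd2 (KO), and were collected at D0, D1 and D5. The D1 and D5 cells were kept either in control medium (CTL) or with methionine restricted (MR). There were 10 groups of 2 libraries, which were 2 replicates for WT and 2 knockout lines, line 1 and line 2, for KO. No medium is named for D0. How the lines were made, and whether each is 1 clone, is not given in the sources used here.

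Methyl groups on H3K36 come from S-adenosylmethionine, which cells make from methionine. Setd2 adds the trimethyl mark and travels with RNA polymerase II along transcribed genes, while Nsd1 and Ash1l add the lower methylation states. Kdm2a and Kdm2b bind unmethylated CpG islands and remove lower states, and Kdm4a, Kdm4b and Kdm4c remove the trimethyl mark. A peak near a gene measures access to DNA and not the amount of its enzyme. Nor can a peak at the start of Setd2 reveal an edit inside the gene, which leaves the genotype labels unchecked here.

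The lists held 20847 to 69881 peaks in 18 libraries and 644 and 1881 in the 2 D5 libraries of KO line 1, which were therefore left out of the tests. KO at D5 thus rests on line 2 alone. Of the muscle markers, Des and Cdh15 had a gene-end peak in all 18 libraries, Myod1 in 17, Mymk in 14, Acta1 in 9 and Myog in 8. Mymk had one in all 10 WT libraries, Acta1 and Myog in 8 of them, and Myog in no KO library. Of 10 markers of other lineages, Rbfox3, Ptprc, Cd3e, Alb, Epcam and Cdh1 had none in any of the 18. Apoa1 had one in 15 libraries, 9 of them WT, Snap25 in 3, 1 of them WT, and Syt1 and Lyz2 in 8 and 3 libraries, all KO. The part of these differences in the results below was not tested.

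Starts with open chromatin are shown beside one without. RefSeq promoter windows of GRCm38.p6, which run from 250 bases before to 50 after a start, matched 6 of the 10 genes. Setd2, Kdm2b, Kdm4a and Kdm4c each had a window that met an element called in all 18 libraries. So did 18% of 32619 windows in the table, and 38.8% of all windows met an element of any list. The 250 bases before 1 start per gene are printed 5′ to 3′ on the gene's strand, with capitals marking matches on either strand to GGGCGG (Sp1), CCAAT (NF-Y) or TGANTCA (AP-1).
Setd2, chr9:110532347-110532596, plus strand: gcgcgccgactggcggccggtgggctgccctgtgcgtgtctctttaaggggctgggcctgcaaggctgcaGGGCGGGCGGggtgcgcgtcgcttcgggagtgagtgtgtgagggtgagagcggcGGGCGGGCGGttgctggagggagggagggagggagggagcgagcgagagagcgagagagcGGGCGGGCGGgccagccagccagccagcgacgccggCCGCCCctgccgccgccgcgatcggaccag
Kdm2b, inner start, chr5:122900351-122900600, minus strand: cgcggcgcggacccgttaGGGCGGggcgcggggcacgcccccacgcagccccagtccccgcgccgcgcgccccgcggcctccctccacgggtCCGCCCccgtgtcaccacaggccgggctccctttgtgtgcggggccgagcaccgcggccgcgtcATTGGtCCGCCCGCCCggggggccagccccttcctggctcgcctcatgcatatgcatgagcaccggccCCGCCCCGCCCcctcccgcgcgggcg
Kdm4a, chr4:118180044-118180293, minus strand: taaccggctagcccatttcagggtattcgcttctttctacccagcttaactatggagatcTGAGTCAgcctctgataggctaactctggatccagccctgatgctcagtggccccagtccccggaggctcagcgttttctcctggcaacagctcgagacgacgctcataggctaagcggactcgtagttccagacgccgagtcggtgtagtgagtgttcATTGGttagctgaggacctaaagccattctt
Kdm4c, inner start, chr4:74251629-74251878, plus strand: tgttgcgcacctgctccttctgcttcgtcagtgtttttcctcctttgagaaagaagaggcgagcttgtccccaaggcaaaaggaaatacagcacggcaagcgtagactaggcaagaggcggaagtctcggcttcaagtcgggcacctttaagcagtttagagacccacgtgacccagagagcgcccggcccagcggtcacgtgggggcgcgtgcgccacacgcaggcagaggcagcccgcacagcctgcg
Setmar, chr6:108064795-108065044, plus strand: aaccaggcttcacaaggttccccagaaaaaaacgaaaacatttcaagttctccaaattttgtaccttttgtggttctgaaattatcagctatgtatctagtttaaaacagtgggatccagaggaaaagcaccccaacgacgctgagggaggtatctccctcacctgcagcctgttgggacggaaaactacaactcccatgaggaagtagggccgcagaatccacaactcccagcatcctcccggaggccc
The Setd2 sequence held 31 CpG dinucleotides and 7 matches to GGGCGG, and the Kdm2b sequence held 38 and 6, with 1 match to CCAAT. The Kdm4a sequence held 12 CpG, 1 match to CCAAT and 1 to TGANTCA, and none to GGGCGG. The Kdm4c sequence held 19 CpG and no match, and its 300-base window had 1 match to GGGCGG in the bases after the start. The Setmar sequence held 6 CpG and no match. Over all 300-base windows, 35.9% held GGGCGG, 37.6% CCAAT and 7.85% TGANTCA, and the median CpG count was 7, or 23.0 in windows with an element in all 18 libraries and 4 in windows with none. CAGCTG (E-box, 16.4% of windows), GCGCATGC (NRF1, 2.72%), CCGGAAG (Ets, 8.92%) and TGACGTCA (CRE, 1.80%) had no match in any of the 5 printed sequences. GGGCGG matches can overlap in GC-rich runs, and each is a description of the letters only.

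Open elements were unevenly spread over the genes. Kdm4b held 21, Kdm2a 11, Kdm2b 10, Nsd1 6, Setd5 5, Setd2, Ash1l and Kdm4a 4 each, and Kdm4c 3. Setmar, a small SET-domain gene with a span of 12.1 kb, had none in any library. Element lengths ran from 53 to 1633 bp with a median of 156, against 172 over all regions, and 5 elements reached 1 kb or more. Of the 68, 15 were called in all 18 libraries, 22.1% against 11% of all regions, and 12 were called in a single library, 17.6% against 20.4%. All 20 libraries, the 2 short lists included, shared 2 elements, those at the start of Kdm4a and at the lower end of Kdm4b, 2.94% of the set against 0.287% of all regions. The gene table used here marks neither exons nor introns, and strand is known for the 6 genes with a promoter window. "Lower" and "upper" end therefore mean the ends with the smaller and the larger coordinate. Of the elements, 53 overlapped a member's span, 15 lay outside, and 7 lay within 1 kb of another gene's end.

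The map of calls over all libraries shows these differences between genes. The number of elements called per library was 34 to 50 in WT at D0 and D1, 31, 39 and 45 in line 1, and 25, 27 and 35 in line 2 at the same times. At D5 it was 22 and 24 in WT CTL, 36 and 37 in WT MR, and 24 and 21 in line 2. These numbers moved with list length. Per 10000 regions called in the same library, the set held 7.37 to 10.1 in early WT, 7.33, 6.53 and 6.49 in line 1, and 8.58, 8.03 and 7.92 in line 2. On that scale line 2 lay within the WT range and line 1 below it, by little at D0 (7.33 against a lowest WT value of 7.37). The scale was also high in short lists, at 11.3 and 11.1 in WT D5 CTL and 46.8 and 26.7 in line 1 at D5. It therefore does not remove list length.

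**Figure D1:**
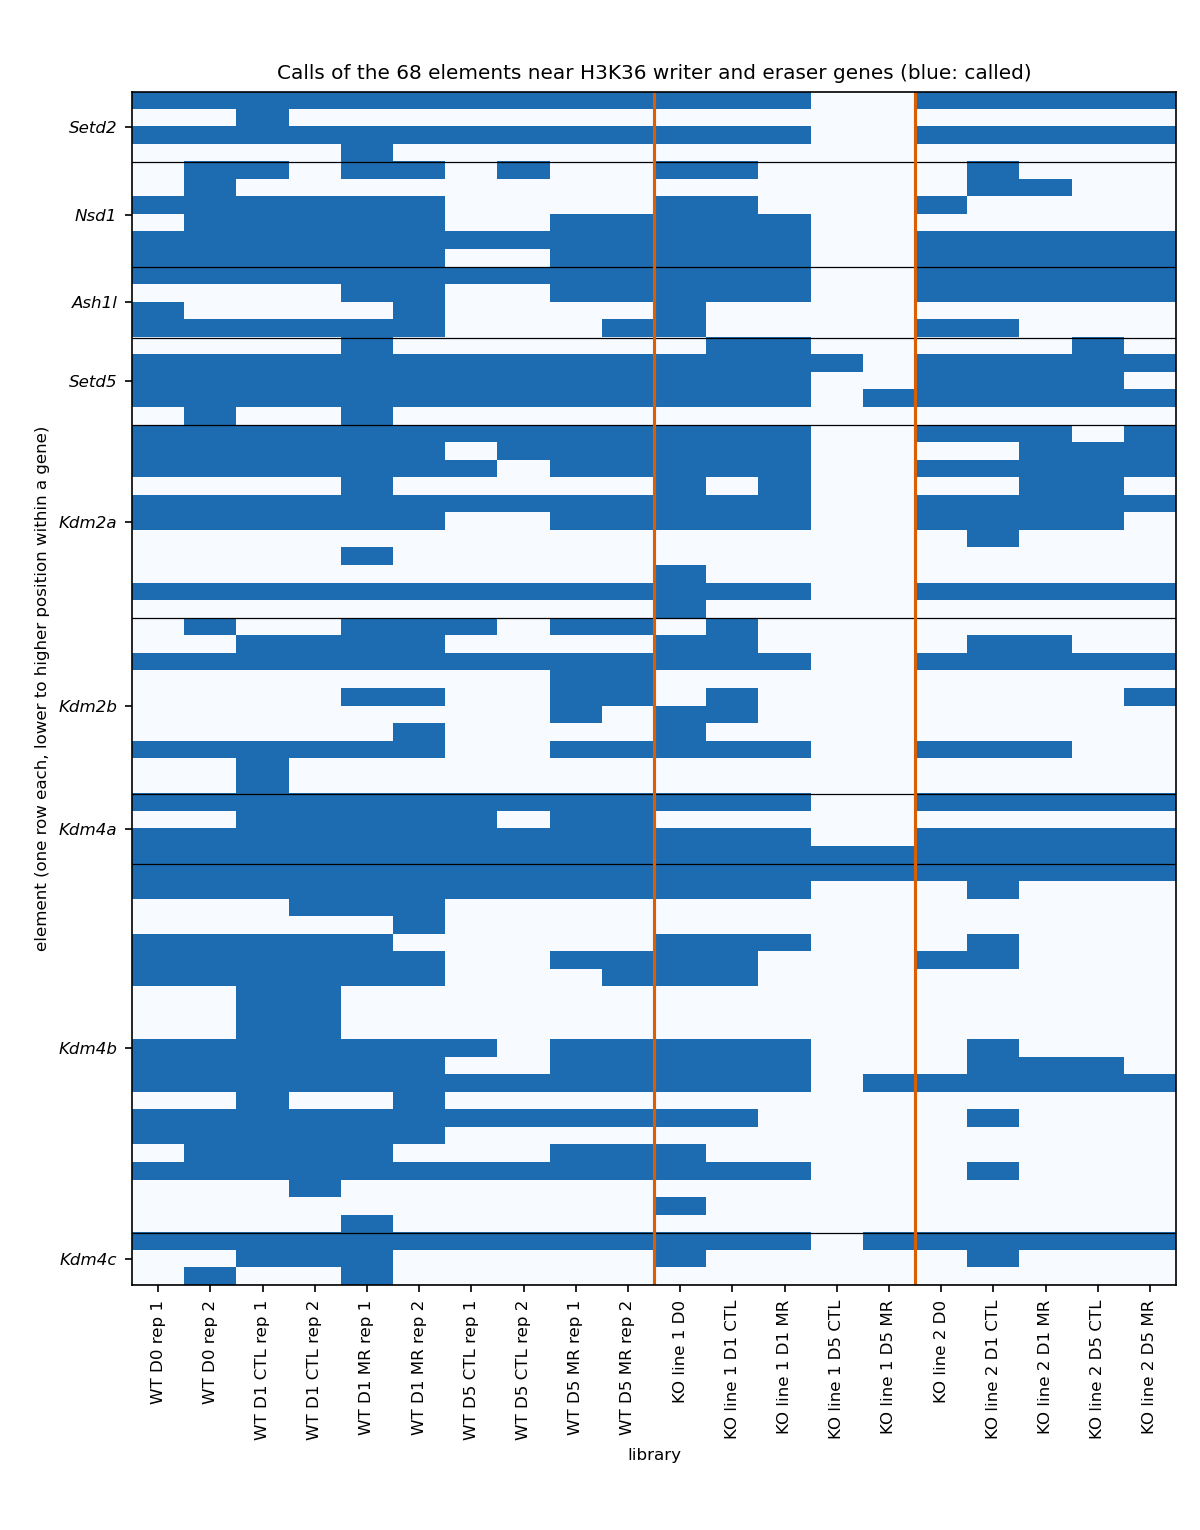
Each row is 1 of the 68 elements, grouped by gene, and each column 1 of the 20 libraries, with blue where the library had a peak in the element; orange lines separate WT, KO line 1 and KO line 2. Rows at Kdm4b are filled more often in WT than in KO line 2, and the 2 D5 columns of line 1, from the lists of 644 and 1881 peaks, are nearly empty.

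For elements called in all 18 libraries, 2 measures were used. The standing of an element is its percentile, within 1 library, by the authors' fold enrichment among the 11144 regions called in all 18. The width percentile ranks the bases covered by the library's peaks in the same way. Elements with missing calls were compared by calls. Each comparison was tested over all regions with a two-sided exact permutation test within strata of matched libraries, with Benjamini-Hochberg adjustment at 0.05. KO libraries of the same line were exchanged as if independent, so genotype p-values do not measure the spread between lines and can be too small. Between KO and WT, 11.5% of 19646 testable regions passed by calls, 18.1% of 11144 by standing and 6.61% by width. The elements of the 10 genes gave 0 of 13, 2 of 15 and 0 of 15, and 7, 4 and 2 of these had an unadjusted p below 0.05, as did 47.3%, 33.7% and 23.2% of all regions tested. Their median difference was -0.5 in the share of libraries called, against -0.300 over all regions tested, and -1.39 points in standing, against 0.470.

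Setd2 itself, the gene targeted in the KO lines, kept its start element in all 18 libraries. The element (chr9:110531909-110533230, 1322 bp) covers the promoter printed above. In WT its standing was 37.3 and 50.5 at D0, 42.8 and 27.3 at D1 CTL, 51.8 and 66.2 at D1 MR, 77.0 and 86.3 at D5 CTL, and 57.0 and 61.3 at D5 MR. In KO, lines 1 and 2 stood at 19.5 and 20.6 at D0, 42.9 and 40.5 at D1 CTL, and 23.4 and 32.6 at D1 MR, and line 2 stood at 48.3 and 80.5 at D5 CTL and MR. Both KO libraries lay below both WT libraries at D0 and at D1 MR, but not at D1 CTL. At D5 the 1 KO library lay below both WT libraries in CTL and not in MR. The KO minus WT difference was -12.1 points and missed the threshold (exact permutation p = 0.117, adjusted 0.260). It was -17.4 for line 1 over 3 conditions of D0 and D1, and -11.3 for line 2 over 5 conditions, D5 included. The line differences given below for Ash1l, Setd5 and Nsd1 cover the same unlike conditions. From D1 to D5 the standing was higher by 26.5 points, which did not pass after adjustment (exact permutation p = 0.0123, adjusted 0.0775). Restriction gave a difference of 4.98 points (exact permutation p = 0.708, adjusted 0.891).

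The start element also varied in width. KO line 1 covered 1322 bp at D0 and 915 bp at D1 CTL, the widest values, while the other 16 libraries covered 320 to 608 bp. At D1 MR the same line covered 414 bp, so the wide call was not present in every library of line 1. The genotype difference in width percentile was 2.65 points (exact permutation p = 0.646, adjusted 0.834). The remaining 3 elements of Setd2 lay far from its start. One near Nradd and Nbeal2 (chr9:110624298-110625165), 5665 bp beyond the upper end, was called in all 18 libraries with a standing of 19.5 to 66.2. It met a promoter window of Nradd. The other 2 were 75 bp each and were called in 1 WT library each.

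Within its own list, a description that moves with list length, the Setd2 start element ranked by fold, with 1 the strongest peak, at 4632 to 14110 in early WT libraries and at 2905, 1646, 5722 and 5030 in those of D5. In KO it ranked 16341 and 16009 at D0, 8794 and 9888 at D1 CTL, 14551 and 10730 at D1 MR, and 7066 and 2320 in line 2 at D5. As a percentile of the list, where 100 is the strongest, this was 69.0 to 92.1 in WT, 70.0 to 85.6 in line 1 and 47.7 to 89.5 in line 2, ranges that overlapped.

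Among the gene-end elements elsewhere that followed the Setd2 start element most closely over the 18 libraries were those at P2ry2 (Pearson r = 0.83), Tmem107 and Smarca2 (0.81 each) and Snx7 (0.80), of 5445 compared. These points share libraries and list lengths, and the correlations are given as a description. Among the 14 other elements of the set with a standing, the highest r was 0.63, for the element beyond the lower end of Kdm4a, followed by 0.49 for the Setd5 start element.

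Ash1l, a writer of the lower H3K36 states named for a fly trithorax-group gene, had the lower standing in KO that stood out in the set. Its gene-end element (chr3:88949794-88951181, 1388 bp) covers the lower end of Ash1l and lies within 1 kb of an end of Dap3, so it cannot be assigned to either gene alone. WT standing was 79.8 and 72.6 at D0, 89.1 and 47.6 at D1 CTL, 76.6 and 41.8 at D1 MR, 73.9 and 61.4 at D5 CTL, and 66.1 and 50.2 at D5 MR. Lines 1 and 2 stood at 24.8 and 31.1 at D0, 17.9 and 39.6 at D1 CTL, and 19.3 and 15.4 at D1 MR, and line 2 stood at 31.1 and 17.7 at D5 CTL and MR. Every one of the 8 KO libraries lay below both WT libraries of its condition, a pattern seen in 2.82% of the 11144 regions. The reverse, every KO library above, was seen in 2.90%, and in none of the 15 elements of the set.

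The Ash1l difference was -41.3 points (exact permutation p = 5.14e-04, the smallest this design allows, adjusted 0.00992), with -47.3 in line 1 and -38.9 in line 2. It was -40.8 when peaks were ranked by −log10 p and -44.8 after centring on the chromosome, and passed in both. Leaving out WT replicate 1, WT replicate 2, line 2 or all D5 libraries gave -30.2, -52.5, -47.3 and -43.2, with adjusted exact permutation p of 0.180, 0.178, 0.144 and 0.104. In each of these 4 settings no region of the 11144 passed. Among peaks with a −log10 q of at least 5, the element was called in 17 of the 18 libraries and so had no standing to test. Within the lists, the element lay at percentiles 75.5 to 97.5 in WT and 36.3 to 78.4 in KO. Widths were 199 to 1191 bp in WT and 412 to 1388 bp in KO, and the width percentile differed by 2.56 points (exact permutation p = 0.667, adjusted 0.847).

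Another Ash1l element showed the opposite tendency. It lies 33.8 kb inside the gene (chr3:88984095-88984423, 329 bp) and was called in all 8 KO libraries and in 4 of 10 WT libraries. Those 4 were the WT MR libraries, both at D1 and both at D5, while no WT library of D0, D1 CTL or D5 CTL called it. Its fold ranked it at percentiles 20.1 and 29.9 of the WT lists at D1 MR, 58.9 and 77.1 at D5 MR, and 39.7 to 82.1 of the KO lists. Those percentiles come from lists of unequal length. The share called was higher by 0.600 in KO (exact permutation p = 0.00926, adjusted 0.0504), just short of the threshold. It was higher by 0.5 in MR (exact permutation p = 0.0556), which the test does not allow to pass. With the 20000 strongest peaks of each list the genotype difference was again 0.600, with an adjusted exact permutation p of 0.0495.

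**Figure D2:**
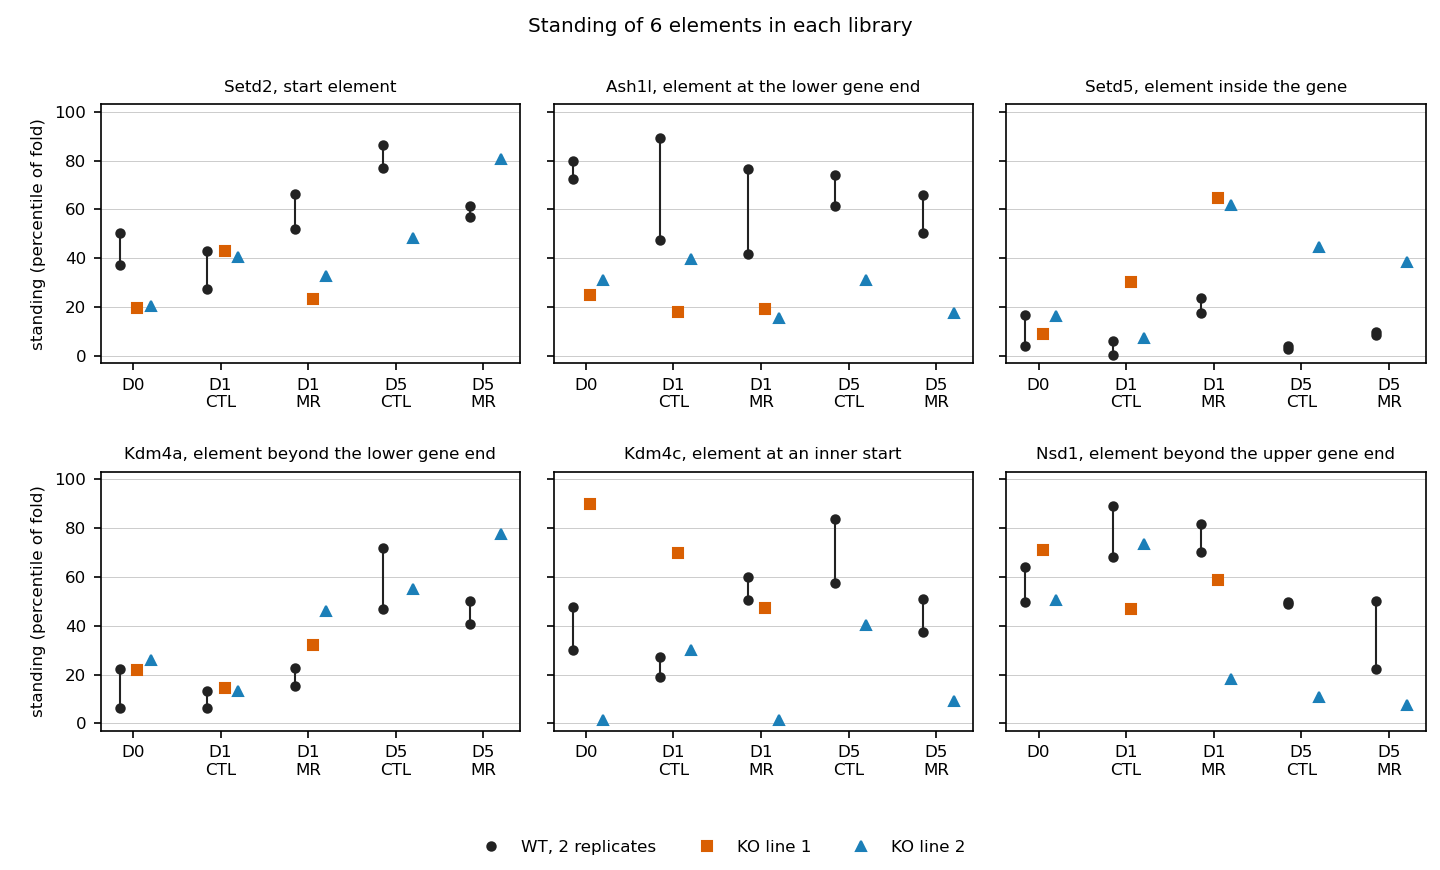
Standing (percentile of fold enrichment among 11144 regions, vertical axis) of 6 elements in each condition, with both WT replicates as joined black circles, KO line 1 as orange squares and KO line 2 as blue triangles; line 1 at D5 is not drawn. At Ash1l all 8 KO symbols lie below both WT circles of their condition, and at Kdm4c the lines lie on opposite sides of WT at D0.

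Setd5, a SET-domain gene, had 1 element that stood higher in KO. It lies 22.6 kb inside the gene (chr6:113099699-113099928, 230 bp). WT standing was 3.98 and 16.9 at D0, 0.193 and 6.24 at D1 CTL, 23.7 and 17.5 at D1 MR, 3.92 and 2.98 at D5 CTL, and 9.80 and 8.37 at D5 MR. Lines 1 and 2 stood at 8.92 and 16.3 at D0, 30.1 and 7.54 at D1 CTL, and 64.8 and 62.0 at D1 MR, and line 2 at 44.5 and 38.5 at D5 CTL and MR. The groups overlapped at D0 and separated at D1 and D5. The difference was 26.2 points (exact permutation p = 0.00257, adjusted 0.0228), with 23.2 in line 1 and 24.4 in line 2. It was 25.2 without WT replicate 1, 27.3 without WT replicate 2, 23.2 without line 2 and 20.2 without D5, and did not pass in those 4 settings (adjusted exact permutation p = 0.260, 0.178, 0.209 and 0.226). No region of the 11144 passed in those settings, so the misses do not set this element apart. Among peaks with a −log10 q of at least 5 it was called in 13 of the 18 libraries and could not be tested by standing.

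At the start of Setd5 lay the longest element of the set (chr6:113076008-113077640, 1633 bp). It was covered over 1141 to 1632 bp in the 18 libraries, and its standing was low, 3.54 to 40.1. In WT CTL it stood at 11.3 and 19.5 at D1 and at 40.1 and 39.9 at D5, without overlap. The D5 minus D1 difference of 18.7 points did not pass (exact permutation p = 0.00617, adjusted 0.0553). The RefSeq window of Setd5 belongs to an inner start and met no element.

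Nsd1, a writer of the dimethyl mark, had its only element called in all 18 libraries beyond its upper end, at Rab24 and Prelid1 (chr13:55321777-55322135, 359 bp). That element met promoter windows of both Rab24 and Prelid1, so it cannot be assigned to Nsd1. Its standing in WT was 49.7 and 64.1 at D0, 89.0 and 68 at D1 CTL, 81.8 and 70.1 at D1 MR, 49.0 and 49.6 at D5 CTL, and 50.3 and 22.5 at D5 MR. In line 1 it was 71.2 at D0, above both WT libraries, and 47.0 at D1 CTL and 58.8 at D1 MR, below both. In line 2 it was 50.6 at D0, 73.4 at D1 CTL, 18.2 at D1 MR, and 10.7 and 7.70 at D5. KO differed from WT by -23.8 points (exact permutation p = 0.0139, adjusted 0.0641), with -11.4 in line 1 over 3 conditions and -27.3 in line 2 over 5, D5 included. D5 differed from D1 by -37.3 (exact permutation p = 0.00617, adjusted 0.0553). Neither passed. Ranked by −log10 p, the genotype difference of -24.3 passed (adjusted exact permutation p = 0.0387). An element near the lower end of Nsd1 (chr13:55211721-55213044) had a peak in 5 of 10 WT libraries and 3 of 8 KO libraries, and covered 65 to 1274 bp where it was called. An element inside the gene (chr13:55278823-55278933) was called in all 8 libraries of WT and KO at D0 and WT at D1, in line 1 at D1 CTL, and in no other library.

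Among the erasers, the start of Kdm4a was one of the most open places of the set. Its element (chr4:118179558-118180278, 721 bp), over most of the promoter printed above, had a standing of 90.4 to 99.8 in all 18 libraries. It was also called in both short lists. The element at the lower end of Kdm4b (chr17:56325533-56326358, 826 bp) stood at 90.9 to 99.5. Both had small genotype differences, -0.151 and -1.39 points (adjusted exact permutation p = 0.960 and 0.379). Inside Kdm2a, an element 17.9 kb from the lower end (chr19:4333800-4334247) stood at 83.0 to 97.7 and differed by 1.93 points (adjusted exact permutation p = 0.502). These 3 elements stood at 83.0 or higher in all 18 libraries. The Kdm4a start element ranked 25 to 1143 among the peaks of its list in these libraries and the Kdm4b element 60 to 1083. In the short lists of line 1 at D5 they ranked 386 and 99 in CTL and 17 and 209 in MR.

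A small element inside Kdm4a, 1.0 kb from its lower end (chr4:118137932-118138081, 150 bp), had a peak in 7 of 10 WT libraries and in 0 of 8 KO libraries. The WT calls were all 4 libraries of D1, 1 of D5 CTL and both of D5 MR, with none at D0. These peaks were weak, with a fold at percentiles 15.7 to 47.0 of their lists. Against the 11144 regions with a standing the percentiles were 0.565 to 5.98. The difference of -0.700 in the share called did not pass (exact permutation p = 0.0123, adjusted 0.0540). With all 20 libraries it passed (adjusted exact permutation p = 0.0412), a setting that adds the short lists of line 1.

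At the inner start of Kdm4c, line 1 stood above line 2 in each condition of D0 and D1. The element there (chr4:74251703-74252373, 671 bp) overlaps part of the Kdm4c sequence printed above, which begins before it. WT standing was 30.1 and 47.5 at D0, 27.4 and 19.1 at D1 CTL, 50.6 and 60.1 at D1 MR, 57.6 and 83.9 at D5 CTL, and 37.6 and 50.9 at D5 MR. Line 1 stood at 90.0, 69.9 and 47.4 at D0, D1 CTL and D1 MR, and line 2 at 1.39, 29.9 and 1.59. Line 2 stood at 40.5 and 9.13 at D5. The lines lay on opposite sides of WT at D0 only. Both lay above both WT libraries at D1 CTL and below both at D1 MR. The mean difference from WT was 30.0 in line 1 over 3 conditions and -30.0 in line 2 over 5, D5 included. The pooled value of -12.5 (adjusted exact permutation p = 0.513) describes neither line. Without line 1 the difference of -30.0 passed (adjusted exact permutation p = 0.0479). The RefSeq window of its upstream start met no element.

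Kdm2b had its constant element at the inner start (chr5:122900063-122900563, 501 bp), with a standing of 2.26 to 66.6 and no comparison past the threshold. Of its 2 windows near the upper gene end, 1 met an element, called in 2 libraries, and the other met none. At Kdm2a, the element 1167 bp inside the upper end (chr19:4397016-4397554) was called in all 18 libraries, mostly at a low standing of 1.20 to 38.1. The exceptions were WT D1 CTL replicate 1 at 52.2 and line 1 at D0 at 67.4. A pair of further Kdm2a elements beyond the lower end were each missing from 1 of the 18 libraries. The one near Grk2 (chr19:4305596-4306549) was not called in line 2 at D5 CTL, and the one 557 bp from the gene (chr19:4315172-4315587) not in WT D5 CTL replicate 2. The genotype difference at the element near the upper end, 9.26 points, did not pass (adjusted exact permutation p = 0.465).

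**Figure D3:**
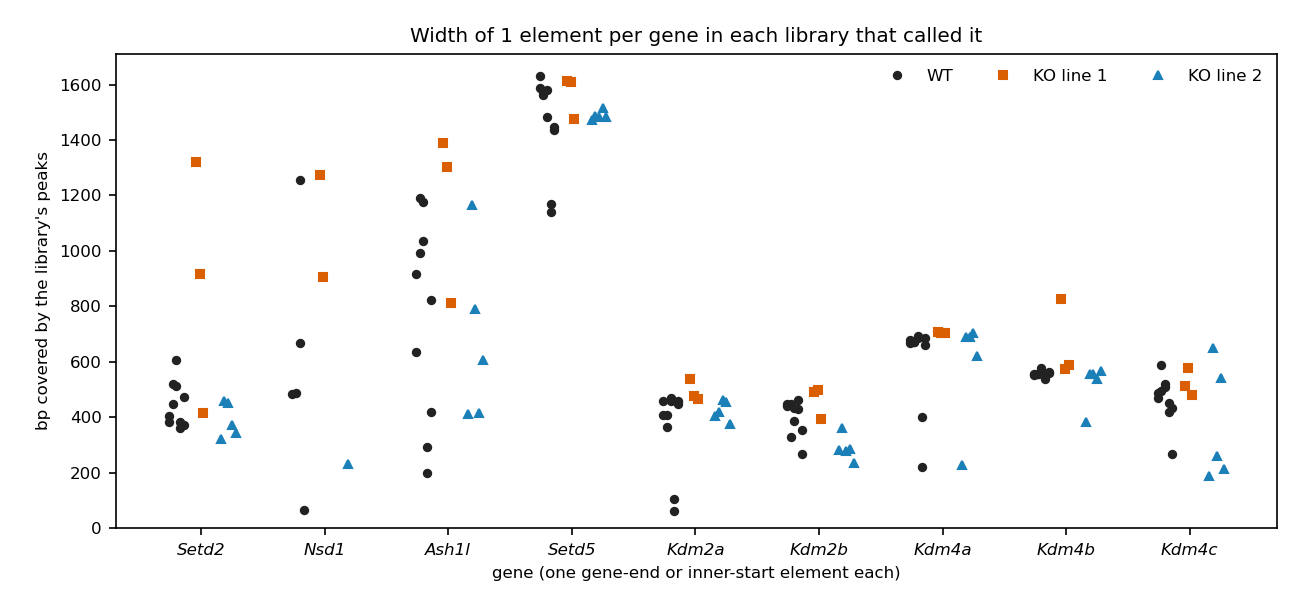
Bases covered by a library's peaks (vertical axis) in 1 element of each of the 9 genes, with WT as black circles, KO line 1 as orange squares and KO line 2 as blue triangles; D0 to D5 run from left to right within each set, libraries without a call are not drawn, and line 1 at D5 is left out. Setd5 covers 1141 to 1632 bp in the 18 libraries, and line 1 gives the 2 widest values at Setd2.

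Kdm4b held the densest run of elements, 20 over its span of 77.8 kb. At D0 and D1, 10 of them were called in all 6 WT libraries. Line 1 kept 6 of the 10 in all 3 of its libraries, and line 2 kept 2, at the lower end and 34.4 kb inside. WT libraries called 11, 12, 16, 17, 14 and 13 elements of Kdm4b, line 1 called 12, 10 and 7, and line 2 called 3, 9 and 3. At D5, WT called 6 and 5 in CTL and 9 and 10 in MR, against 3 and 2 in line 2. The other 9 genes differed less, with 23 to 36 elements in early WT libraries, 24 to 33 in line 1 and 22 to 26 in line 2.

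Single Kdm4b elements fell short of the threshold. The element at 44.7 kb (chr17:56370572-56370759) was called in all 6 early WT and no KO library, a pattern of 0.967% of all regions, and in no D5 library. Its difference was -0.600 (exact permutation p = 0.00926, adjusted 0.0504). Against the 11144 regions with a standing, its fold lay at percentiles of only 0.0987 to 6.10 in those 6 WT libraries. The element at 40.5 kb (chr17:56366443-56366594) had a peak in 10 of 10 WT libraries and 3 of 8 KO libraries, a difference of -0.700 (exact permutation p = 0.00926, adjusted 0.0504). Those at 5.5 and 68.1 kb had one in 10 of 10 WT libraries and 4 of 8 KO libraries, -0.600 each (exact permutation p = 0.0278, adjusted 0.0681). Of the 4 KO calls at each of these 2, 3 came from line 1 and 1 from line 2. Without line 1, the elements at 40.5, 5.5 and 68.1 kb each differed by -0.800 and passed (adjusted exact permutation p = 0.0499).

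**Figure D4:**
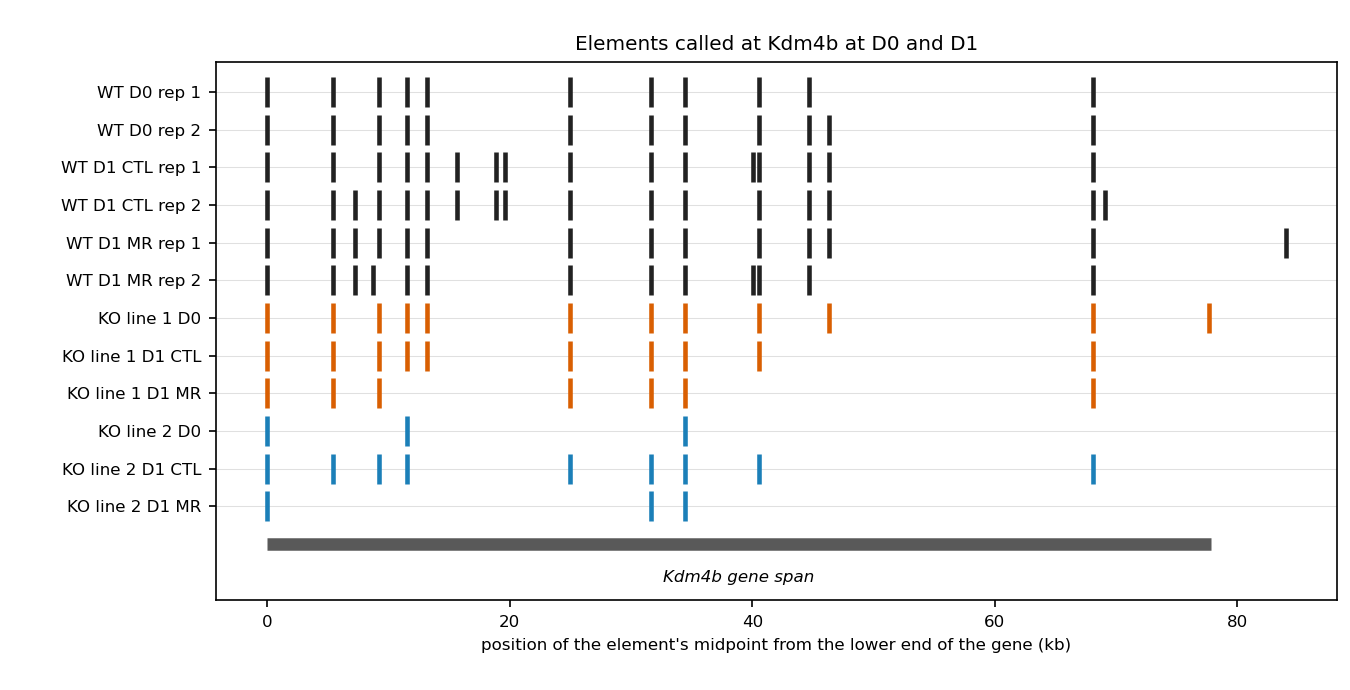
Each tick is an element called at Kdm4b, placed by the distance of its midpoint from the lower end of the gene in kb (horizontal axis), in the 12 libraries of D0 and D1 (rows); the grey bar is the gene span. WT rows hold 11 to 17 ticks, KO line 1 rows 7 to 12 and KO line 2 rows 3 to 9.

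List length and chromosome moved with this pattern. The early lists of line 2 held 30629, 46664 and 35201 peaks, against 43058 to 69881 in WT. Over all chromosomes, line 2 kept 64.3% of the regions called in all 6 early WT libraries and line 1 kept 82.7%. On chromosome 17, which carries Kdm4b, they kept 54.2% and 78.9%, the lowest share of any chromosome in line 2 and the second lowest in line 1. The median standing on chromosome 17 was shifted by -6.36 points in line 2 and by -0.854 in line 1. A loss at Kdm4b and a lower signal over its chromosome in line 2 cannot be told apart here. On chromosome 3, which carries Ash1l, the shifts were 0.150 in line 1 and 3.57 in line 2. On chromosome 4, which carries Kdm4c, they were 2.92 and 0.546.

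**Figure D5:**
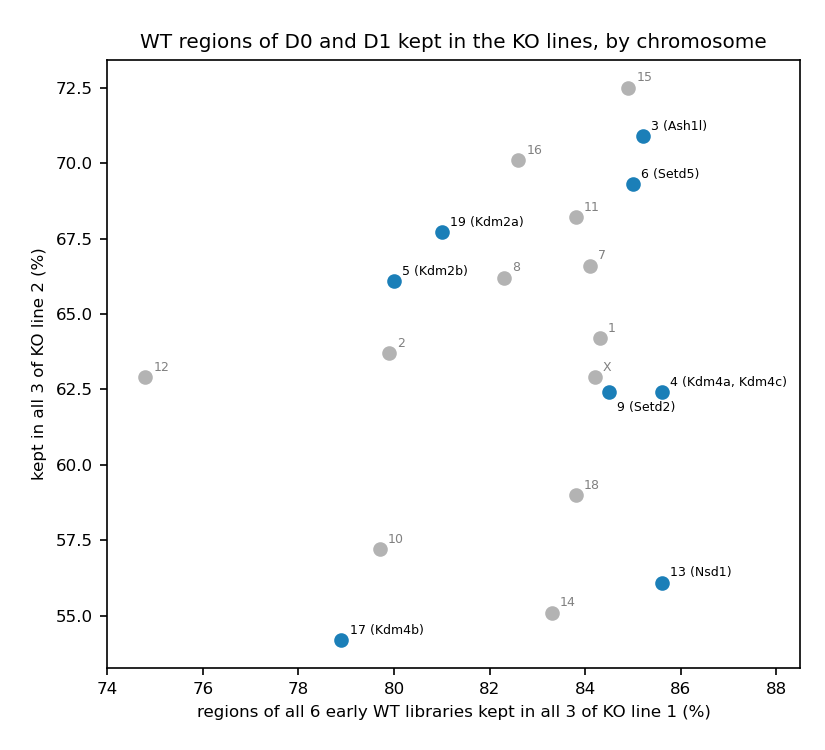
Percent of the regions called in all 6 WT libraries of D0 and D1 that were also called in all 3 libraries of KO line 1 (horizontal axis) and KO line 2 (vertical axis), 1 point per chromosome, with chromosomes that carry a gene with elements in blue. Chromosome 17, with Kdm4b, is lowest on the vertical axis at 54.2%.

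Methionine restriction gave no call in the tests. Of the regions tested, 0% passed by calls (2611 tested), 0% by standing and 0% by width, and 266, 1974 and 1387 had an unadjusted p below 0.05. The elements of the set gave 0 of 1, 0 of 15 and 0 of 15, with 0, 4 and 3 at an unadjusted p under 0.05 in the exact permutation test. In WT at D5, 10 elements were called in both MR and neither CTL library, 14.7% of the set against 11.9% of all regions. None showed the reverse, a pattern of only 0.211% of all regions. The 10 lay at Nsd1, Ash1l, Kdm2a, Kdm2b and Kdm4b. The WT lists at D5 were also longer in MR, 39263 and 39538 peaks against 20847 and 22465. In WT at D1, 3 elements of Kdm4b at 15.6, 18.9 and 19.6 kb were called in both CTL and neither MR library, 4.41% of the set against 1.33% of all regions. The reverse was seen at 3 elements, 1 of Ash1l and 2 of Kdm2b, 4.41% against 7.73%.

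At D1 the Setd2 start element moved in opposite directions in the genotypes. WT libraries stood at 42.8 and 27.3 in CTL and at 51.8 and 66.2 in MR, and KO libraries at 42.9 and 40.5 in CTL and at 23.4 and 32.6 in MR. The media did not overlap in either genotype. Such a pattern was seen in 5.81% of the 11144 regions and in 1 of the 15 elements of the set. The set was thus near the share over all regions, and the pattern is not particular to it. The MR minus CTL effect in KO less that in WT was -37.6 points. This difference was not tested, since 0.0556 is the smallest p an exact permutation allows here. At D5 the directions were the other way round. WT stood at 77.0 and 86.3 in CTL and at 57.0 and 61.3 in MR. Line 2, the only KO line used there, stood at 48.3 in CTL and 80.5 in MR.

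Between D5 and D1, 0% of 14311 regions passed by calls, 7.50% of 11144 by standing and 0% by width. At an unadjusted p under 0.05 there were 7166 by calls (50.1%), 3183 by standing (28.6%) and 3140 by width (28.2%). The set gave 0 of 9, 1 of 15 and 0 of 15, with 4, 6 and 3 at an unadjusted p under 0.05 in the exact permutation test. All 9 elements tested by calls were called less often at D5, with a median difference of -0.5 in the share called, against -0.625 over all regions tested. Within each genotype, line and medium the D5 lists were shorter than those of D1. The 1 element that passed lies 1345 bp beyond the lower end of Kdm4a, at St3gal3 (chr4:118134526-118135612, 1087 bp). It met a promoter window of St3gal3, so it cannot be assigned to Kdm4a. Its standing was 6.23, 13.2, 15.3 and 22.6 in WT at D1, 14.5 and 32.3 in line 1, and 13.5 and 46.0 in line 2. At D5 it was 46.8, 71.9, 50.2 and 40.7 in WT, and 55.1 and 77.5 in line 2. Within WT, and within line 2, every D5 value exceeded every D1 value. The difference was 38.9 points (exact permutation p = 0.00309, the smallest this design allows, adjusted 0.0411). With labels exchanged only within a replicate number or line it was 37.6 (adjusted exact permutation p = 0.153), and it was 37.3 to 39.1 without 1 replicate (adjusted 0.0804 to 0.260). In each of these settings no region passed.

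A set of 3 elements had calls in all 4 WT libraries of D1 and none of D5: the Nsd1 element inside the gene, the Kdm4b element at 44.7 kb, and a Kdm2b element 14.1 kb from its lower end (chr5:122884673-122884937). They were 4.41% of the set, against 5.60% of all regions. The Kdm2b element had the widest difference in calls, -0.875 (exact permutation p = 0.0123, adjusted 0.0724), and passed when labels were exchanged within a replicate number or line (-1, adjusted exact permutation p = 0.0341).

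Other genes of the pathway were read at their gene-end elements, defined as lying within 2 kb of an end. Of 3 other writers (Nsd2, Nsd3, Smyd2) all had one and 1 was called in all 18 libraries. That one, Nsd3, stood lower in KO by -19.1 points (adjusted exact permutation p = 0.0483). Of 3 other erasers (Kdm4d, Kdm8, Riox1) all had one, 2 could be tested by standing and none passed in any comparison. Of 16 readers and partners, 15 had a gene-end element, all but Dnmt3a, and 8 could be tested by standing. Iws1, a partner of the elongating polymerase that binds Setd2, stood lower in KO by -22.4 points (adjusted exact permutation p = 0.0228). Hdgfl2, a reader with a PWWP domain, stood higher at D5 by 27.2 points (adjusted exact permutation p = 0.0411). None of these lists had a gene past the threshold for restriction. Over all 11144 regions, 18.1% passed by standing for genotype and 7.50% for D5 against D1. The passing genes named here are therefore not read as a result about the pathway. The median genotype difference of the readers was -1.49 points, against 0.470 over all regions tested. Without WT replicate 1 or 2 the Nsd3 difference was -23.5 and -14.7 and the Iws1 difference -26.9 and -18.0, and none of these passed. Iws1 passed without line 1 (-24.6) and missed without line 2 (-21.9) or D5 (-25.6), and Nsd3 missed without either line or D5 (-10.2 to -16.3). By genotype standing, no region passed without WT replicate 1, WT replicate 2, line 2 or D5, so misses there do not set these genes apart. Hdgfl2 missed without any 1 replicate (23.0 to 29.8), with labels exchanged within a replicate number or line (24.6), centred on the chromosome (28.0) and ranked by −log10 p, where the difference was 11.2. In the first of these settings, without 1 replicate or with labels so exchanged, no region passed.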

How the data were processed

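Chromatin accessibility was measured by ATAC-seq in 20 C2C12 libraries. Cells were lysed, their DNA was cut with a kit transposase, and paired ends were sequenced, per the labels' protocols. The authors deposited 1 broadPeak list per library. For each deposited peak a list holds the fold enrichment, which is a ratio, and 2 −log10 values, of p and of q. The lowest deposited −log10 q was 1.00. The genome build was GRCm38 per the submitters' processing notes. The aligner, filters, duplicate handling, read shift and peak caller are not given in the sources used here, so their effect on width and fold was not tested, and whether a fold is a peak's mean or its summit is unknown. Read totals were not used here, and list length stands for depth.

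Peaks sharing at least 1 bp were merged into regions, and a region was called where a library's peak overlapped it by at least 1 bp. Libraries were grouped by title. Two-sided exact tests permuted genotype within 5 strata of day and medium (18 libraries, 1944 arrangements), medium within 4 strata of genotype and day (14 libraries, 432) and day within 4 strata of genotype and medium (14 libraries, 324). Group means were subtracted within each stratum, and the differences were averaged. Adjustment covered every region whose calls allow a p of 0.05, or the 11144 regions with a standing. D1 against D0 was not tested, since 0.0556 is the smallest p it allows. Nothing in the labels says that WT replicates are separate cultures, so p-values measure only the spread between these libraries. KO libraries recur by line.

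Tested on simulated data with 200 changed regions, the standing test recovered 168 for genotype, with 4 false calls, and 0 for restriction and for D5 against D1. The calls test recovered 0 in all 3 comparisons, with 190 to 200 at an unadjusted p under 0.05, so a small set of changes can stay under the threshold. Same-line KO libraries deviated together (correlations of 0.404 to 0.538 over 3 pairs of groups), WT libraries with the same number did not (-0.0659 to 0.0996 over 10). The simulation gave every library independent noise, of a fixed spread for standing, so its recovery and false calls may not hold for these data.

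Members and lists were chosen with earlier results of these data known. Text names, per member, the start or gene-end element, elements past a test or split between genotypes at D0 and D1, and up to 3 others. The 2 kb limit for gene ends was set after the data were seen. Work used Python 3.11.15, numpy 2.4.6, pandas 2.3.3, scipy 1.17.1 and matplotlib 3.10.9. Promoter sequences and gene spans are from RefSeq, GRCm38.p6. One gene that the likeness to the Setd2 start element would name is not reported here.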

Additional observations from a re-analysis of the deposited data

Results flagged for a closer look

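At D1 the standing of the Setd2 start element in MR differed from CTL by 23.9 points in WT and by -13.7 points in KO. The media did not overlap in either genotype, and 5.81% of the 11144 regions showed such opposite directions. The set, with 1 of 15 elements, was near that share. The D1 difference between the genotypes was not tested, since 0.0556 is the smallest p an exact permutation allows with its 8 libraries. At D5 the directions were reversed, with WT means of 81.6 in CTL and 59.1 in MR, and line 2 at 48.3 and 80.5.

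The short lists of KO line 1 at D5, which entered no test, still held peaks in the set: 3 elements in CTL and 5 in MR. The element at the Kdm4a start and that at the lower end of Kdm4b were in both, the Setd5 start element in CTL, and elements of Setd5, Kdm4b and Kdm4c in MR.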

How the results depend on the processing

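For genotype, calls in the set numbered 0 in the main test, 3 with all 20 libraries, 2 with the 20000 strongest peaks, 1 without D5 and 0 to 3 without 1 replicate. Calls by standing numbered 2, against 0 with a −log10 q of at least 5, where neither of the 2 was called in all 18 libraries, 0 without D5 and 0 to 3 without 1 replicate. For D5 against D1, calls numbered 0, against 6 with all 20 libraries and 0 to 1 without 1 replicate. Standing gave 1, 2 when ranked by −log10 p and 0 without any 1 replicate, and width gave 0, 4 on log2 bp and 1 centred on the chromosome. With the replicate block, which pairs KO libraries by line but also WT libraries that share only a number, calls gave 1 and standing 0; the block changed no restriction call, and none could be made for genotype. A 50 kb window gave 137 elements in place of 68, 1 of them at Setmar. Of the Kdm4b elements in all early WT libraries, line 1 kept 2 of 2 among the 20000 strongest peaks, a setting chosen after seeing the data; line 2 kept 2 of 2 there.

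Genotype differences in standing that changed sign were those of the Setd5 start element (3.66 ranked by −log10 p, 0.465 without D5), the Kdm4a start element (0.967, 1.86 without line 1, -2.97 without line 2, 0.387 without D5), the Kdm4b elements at the lower end (6.07 centred, 0.114 without line 1, -3.97 without line 2) and at 34.4 kb (6.08 centred, 18.4 without line 2, -13.4 without line 1) and the Kdm4c inner start (30.0 without line 2, -30.0 without line 1, 0.9 without D5). The restriction value at the Setd2 start was -6.04 without line 2 and 8.09 without WT replicate 1, the lowest and highest without 1 replicate. None of these passed the threshold in the main test, and the cause was not tested. List length limits every absent call: an element without a peak was not detectable in that library, which does not show closed chromatin.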
